A study of Mus musculus with 2 samples.

Results

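The Mir34 and Mir449 genes encode microRNAs that share their seed, the bases at positions 2 to 8 through which a microRNA pairs with its target messenger RNAs. The 6 genes Mir34a, Mir34b, Mir34c, Mir449a, Mir449b and Mir449c were chosen by their GENCODE M21 symbols among the 2202 microRNA genes counted. Their values were no part of that rule, but the family was picked with earlier results of these data known. Small RNA was sequenced from 2 libraries of left cerebral cortex. The donors were female mice of the hybrid strain B6CASTF1/J, each 36 days old, which the labels give as biological replicates 1 and 2 under a single donor code. No treatment, other genotype or other tissue was given, so there was 1 group and no comparison between conditions. Whole cortex tissue was used, and in such bulk samples fewer cells of a type and less RNA per cell cannot be told apart.

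MicroRNAs that share a seed can pair with the same sites and are therefore treated as a family. Mir34a is known as a direct target of the tumour suppressor p53 and is made in many tissues, the brain included. Mir34b and Mir34c come from a common primary transcript, and with the Mir449 genes they are best known from multiciliated cells, such as those of the airway, the oviduct, the choroid plexus and the ependyma that lines the brain ventricles, where they help cilia to form. They act there in part by lowering Cp110, a protein that holds back the growth of cilia.

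The mature 5p sequences are shown because the family rests on them, with the seed in capitals. They come from RefSeq on GRCm38.p6, which matched 4 of the 6 genes for this arm, and Mir34c's 5p arm and Mir449b are named only.
miR-34a-5p: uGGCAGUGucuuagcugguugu
miR-34b-5p: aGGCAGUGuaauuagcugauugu
miR-449a-5p: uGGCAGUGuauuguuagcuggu
miR-449c-5p: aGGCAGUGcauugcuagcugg
All 4 carried the same 7 bases, and no gene outside the family carried them at positions 2 to 8 of a mature sequence. Beyond the seed the sequences parted. The smallest distance, 4 edits, separated miR-34a-5p from miR-34b-5p and also miR-449a-5p from miR-449c-5p, while miR-34a-5p and miR-449a-5p were 6 edits apart. The 4 genes belong to 1 of 23 seed groups with 4 or more genes, among 1398 distinct seeds in 1738 mature sequences.

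The hairpins of Mir34b and Mir34c are shown together because these neighbours gave very different counts. The capitals mark the GGCAGUG run, read on the hairpin's own strand.
Mir34b: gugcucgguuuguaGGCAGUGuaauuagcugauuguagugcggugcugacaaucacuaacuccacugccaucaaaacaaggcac
Mir34c: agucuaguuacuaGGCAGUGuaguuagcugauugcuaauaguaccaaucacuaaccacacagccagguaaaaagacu
Each of the 5 family hairpins in the RefSeq table held the run once. Among all 1005 hairpins there, these 5 included, 17 held it (1.69%). The run was taken from the family's own 5p sequences, so its presence in the family is no test. The 3p arms of this pair also shared bases 2 to 8, in capitals here.
miR-34b-3p: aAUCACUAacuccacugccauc
miR-34c-3p: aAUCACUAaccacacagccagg
Counted from the 5′ end, miR-34c-3p differs from miR-34b-3p by U11C, C12A, U16A, U21G and C22G. The 3p seeds of Mir34a, Mir449a and Mir449c were different from this one and from each other.

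The 6 genes lie at 3 places of the mm10 assembly. Mir34a (chromosome 4, 150068454 to 150068555, plus strand) overlaps by 17 of its 102 bases an exon of Gm37795, an unverified transcript model on the same strand. Mir34c (chromosome 9, 51103034 to 51103110) and Mir34b (51103562 to 51103645) lie 451 bases apart on the minus strand, opposite an intron of the protein-coding gene Btg4. Mir449c (chromosome 13, 113035983 to 113036091), Mir449b (113037419 to 113037498) and Mir449a (113037534 to 113037624) lie on the plus strand in an intron of Cdc20b. The next gene upstream of Cdc20b on that strand is Mcidas, whose product multicilin starts the multiciliated cell program. The longest run of bases that a family hairpin shared with another of the 2202 hairpins was 14 (Mir449a with Mir679). For the other 5 genes it was 11 or 12.

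Mouse 1 gave 1930234 sense counts over all microRNA genes and mouse 2 gave 1863876, and reads that mapped to several places (50.9% and 51.2% of mapped reads) entered no gene. Levels are in CPM, the counts scaled to a library total of 1000000, each mean ± SD is over n = 2 mice, and all intervals and limits cover counting error only. Among microRNAs that mark cell types, Mir128-1, Mir132 and Mir138-1 of neurons, Mir338 of oligodendrocytes and Mir126a of endothelium were abundant in both mice, with Mir338 in mouse 1 the lowest at 1331 CPM, whereas the 3 neuronal Mir124a genes, present in several copies, had between 1 and 4 counts each.

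Of the 6 genes, 5 had at least 1 sense count in either mouse, against 32.8% of all 2202 genes. At 10 CPM or more in both mice stood 3 of them, Mir34a, Mir34c and Mir449a, against 13.8% of all genes. Together the 6 genes held 0.192% of the sense counts in mouse 1 (3713 counts, exact Clopper-Pearson 95% interval 0.186% to 0.199%) and 0.272% in mouse 2 (5070 counts, 0.265% to 0.280%), which is 0.232% ± 0.0563 (SD, n = 2).

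Mir34a was the most abundant. It had 3469 counts in mouse 1 (1797 CPM) and 4040 counts in mouse 2 (2168 CPM), or 1982 ± 262 CPM, and ranked at 66 of all genes by its mean. The 2 animals lay close together, with mouse 2 slightly higher.

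Mir34c, one of the pair best known from ciliated cells, came next and varied most. It had 178 counts in mouse 1 (92.2 CPM) and 950 counts in mouse 2 (510 CPM), or 301 ± 295 CPM, an SD nearly as large as the mean. Its rank was 207 in mouse 1 and 128 in mouse 2, so a single mean describes neither animal.

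Mir449a, made from the Cdc20b intron, was low and even. It had 54 counts in mouse 1 (28.0 CPM) and 56 counts in mouse 2 (30.0 CPM), or 29.0 ± 1.46 CPM. The other genes of that intron were at or under the limit of 3 counts that a count of 0 allows, equal to 1.55 CPM for mouse 1 and to 1.61 CPM for mouse 2. Mir449b had 0 counts in both mice, and Mir449c had 0 in mouse 1 and 1 in mouse 2.

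Mir34b, the partner of Mir34c, had 12 counts in mouse 1 (6.22 CPM) and 23 in mouse 2 (12.3 CPM), or 9.28 ± 4.33 CPM. It passed 10 CPM in mouse 2 alone. A further 3 reads of mouse 2 lay on its opposite strand, the only antisense counts at any of the 6 genes. The order Mir34a, Mir34c, Mir449a, Mir34b held in each mouse, with counting intervals that did not overlap between neighbours. Mir449b and Mir449c could not be ordered at this depth. These are orders of counts without a length correction, since the labels give the RNA as under 30 bases, and how well each sequence is captured in such libraries was not tested.

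**Figure D1:**
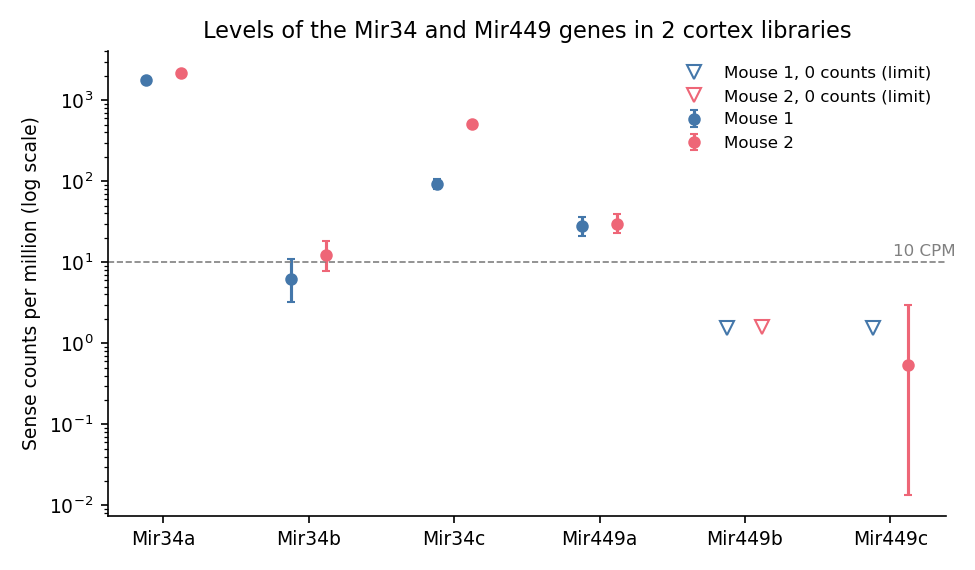
Sense-strand level in CPM (log scale) of the 6 genes in mouse 1 and mouse 2. Points are the libraries' values with exact Poisson 95% intervals of the counts, open triangles mark genes with 0 counts at the limit of 3 counts, and the dashed line is 10 CPM; Mir34a lies at 1797 and 2168 CPM, while the Mir34c points lie far apart, at 92.2 and 510 CPM.

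The make-up of the family differed between the animals through Mir34c. Mir34a held 93.4% of the family's counts in mouse 1 (exact 95% interval 92.6% to 94.2%) and 79.7% in mouse 2 (78.6% to 80.8%). Mir34c held 4.79% (4.13% to 5.53%) and 18.7% (17.7% to 19.8%). The 3 Mir449 genes together held 1.45% (1.09% to 1.89%) and 1.12% (0.853% to 1.45%), with intervals that overlapped. Summed without Mir34c, the family came to 1831 CPM for mouse 1 and to 2210 CPM for mouse 2. With Mir34c it came to 1924 and 2720 CPM.

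**Figure D2:**
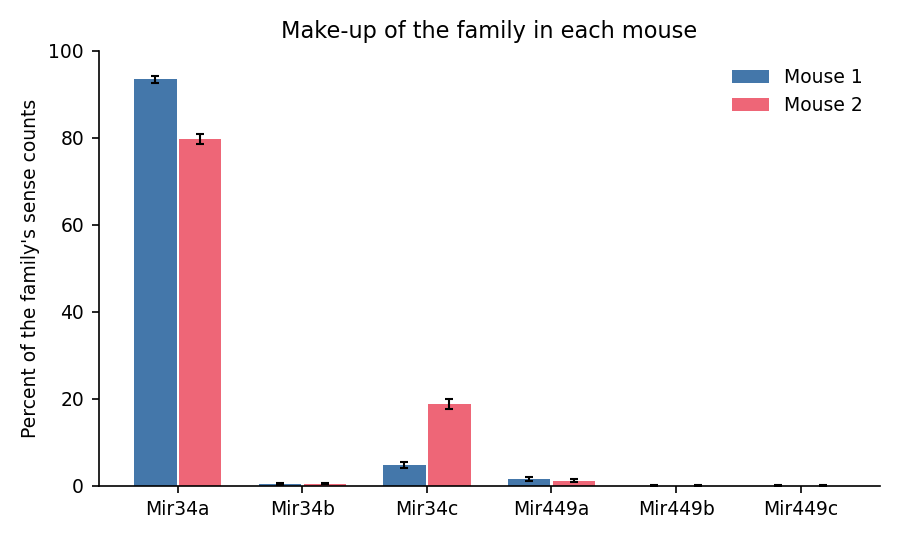
Share of the family's sense counts (percent, axis from 0) held by each gene in each mouse. Bars are the libraries' shares and error bars exact Clopper-Pearson 95% intervals; Mir34c takes 4.79% in mouse 1 and 18.7% in mouse 2, and Mir34a takes 93.4% and 79.7%.

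The pair of libraries was compared gene by gene with a two-sided exact binomial test, adjusted by the Benjamini-Hochberg method over the 324 genes whose mean reached 10 CPM. That test compares 2 libraries and not conditions, and animal and library preparation cannot be told apart. Of the 3 members tested 1, Mir34c, was at least 2-fold apart with an adjusted p under 0.05, against 19.4% of the tested genes in either direction and 14.2% in the direction of mouse 2. With the adjusted p alone, 2 of the 3 members passed, as did 74.7% of the tested genes. The median log2 ratio of mouse 2 over mouse 1 was 0.22 for the 3 members and −0.00376 for all 324 genes.

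The level of Mir34c in mouse 2 was 5.35 times that in mouse 1 (log2 ratio 2.42 with a 95% interval of counting error from 2.19 to 2.66, adjusted p = 2.74e-127 by the exact binomial test). By the size of its log2 ratio it ranked at 6 of the 324 genes. That test covers counting error alone. The spread between the mice was then added, as a common coefficient of variation of 0.399 that edgeR estimated over the 324 genes. That estimate comes from the same 2 libraries that are compared, so it sets Mir34c against the difference of all tested genes. With it, the negative binomial test of edgeR gave p = 0.00618 and an adjusted p of 0.334 for Mir34c. That negative binomial test called 2 of 324 genes. With 5 other settings of the exact binomial test, the adjusted p of Mir34c ran from 6.81e-133 to 1.56e-100.

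Mir34a differed by 1.17-fold (log2 ratio 0.22, 95% counting interval 0.16 to 0.29, adjusted p = 6.19e-11 by the exact binomial test), under the 2-fold mark, and ranked at 253 by size. The median size of the log2 ratio over the 324 genes was 0.53. With a linear trend on hairpin GC content removed, its log2 ratio was 0.06 (adjusted p = 0.0757 by the exact binomial test; the other 4 settings of that test gave 1.42e-15 to 1.38e-10). Mir449a did not pass, with a log2 ratio of 0.05 whose counting interval, −0.51 to 0.62 covers differences in either direction (adjusted p = 0.879 by the exact binomial test). Mir34b lay just under the level needed for testing. Tested with all 722 genes that had a count, its log2 ratio was 0.94 (−0.13 to 2.08, adjusted p = 0.172 by the exact binomial test).

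**Figure D3:**
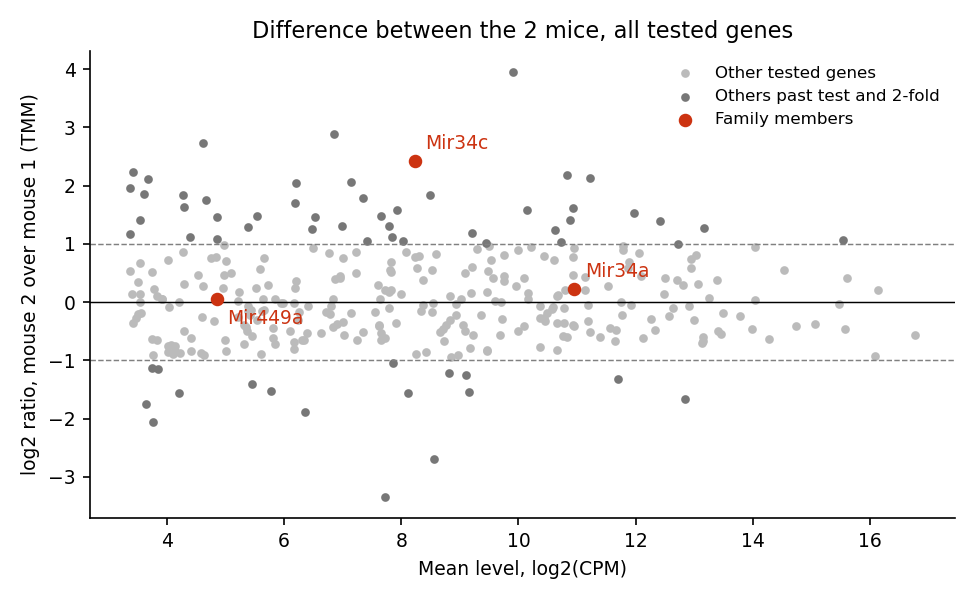
Log2 ratio of mouse 2 over mouse 1, with TMM library sizes, against the mean level in log2(CPM) for the 324 tested genes. Each point is a gene, dark grey points passed the exact binomial test and 2-fold, dashed lines mark 2-fold, and of the 3 family members (red) Mir34c lies at 2.42 while Mir34a (0.22) and Mir449a (0.05) lie near 0.

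Within each library, where no scaling enters, the members stood in different proportions. Mir34a had 19.5 counts for each count of Mir34c in mouse 1 (exact 95% interval 16.8 to 22.8) and 4.25 in mouse 2 (3.96 to 4.57), intervals that lie well apart. Mir34a had 64.2 counts for each of Mir449a in mouse 1 (49.1 to 85.7) and 72.1 in mouse 2 (55.4 to 95.7), intervals that overlap. Mir34c had 14.8 counts for each of Mir34b in mouse 1 (8.28 to 29.3) and 41.3 in mouse 2 (27.4 to 65.5), and these intervals overlap only at their ends. The pair on chromosome 9 was thus unequal in both mice.

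Unequal neighbours were common in these libraries, in part by the rule that chose the pairs. There were 93 pairs of successive hairpins on a strand, at most 1000 bases apart, with a mean of at least 10 CPM for 1 or both hairpins. Their levels differed by a median of 4.22 in log2(CPM + 1), with quartiles at 2.08 and 6.43. A pair could enter through 1 hairpin alone, and many had a partner at 0 CPM in both mice. An example is Gm27320 beside Mir328, the widest gap (13.8). Such pairs raise the median gap, so a middle rank among the 93 says little. Mir34c and Mir34b differed by 4.47 and ranked at 44 of the 93 pairs, and Mir449a and Mir449b differed by 4.91 and ranked at 38. In how far the neighbours' mouse-to-mouse log2 ratios differed, the pairs had a median of 0.66 (quartiles 0.18 and 1.13). Mir34c and Mir34b differed by 1.57, at rank 10, on the few counts of Mir34b, and Mir449a and Mir449b by 0.10, with Mir449b at 0. Pairs share a library and often a locus, and hairpins with copies elsewhere lose reads, so these ranks are a description.

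**Figure D4:**
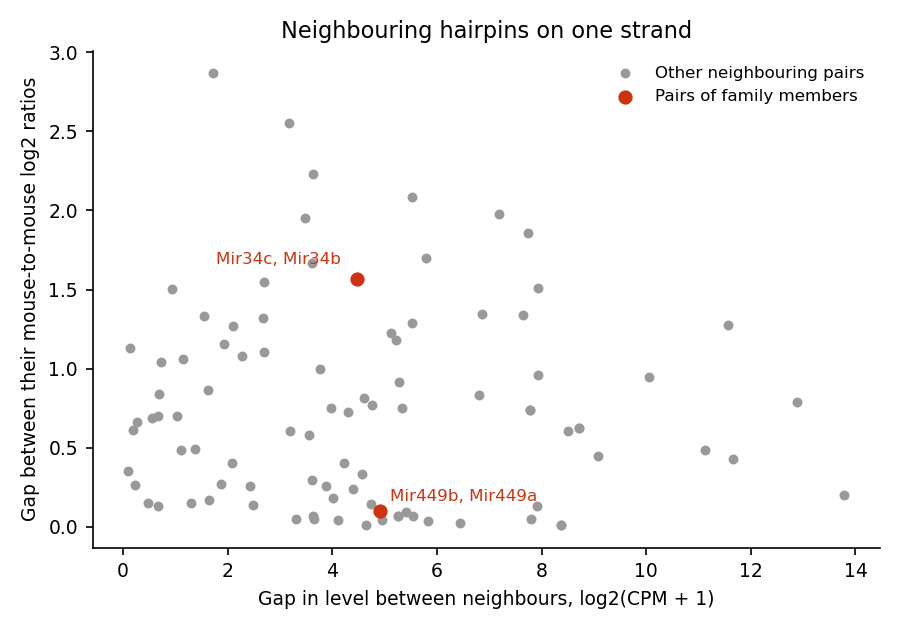
Pairs of successive hairpins on a strand: the gap between their levels in log2(CPM + 1), averaged over the mice, against the gap between their mouse-to-mouse log2 ratios. Each point is 1 of 93 pairs, and of the family's pairs (red) Mir34c with Mir34b lies at 4.47 and 1.57, and Mir449b with Mir449a at 4.91 and 0.10.

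Genes whose levels were most like a member's were found by the distance between log2(CPM + 1) values over the 2 mice. For Mir34a these were Mir181d (1606 and 2304 CPM in mouse 1 and mouse 2, distance 0.18) and Mir708 (1628 and 1947 CPM, distance 0.21). For Mir34c they were Mir384 (119 and 370 CPM, distance 0.59) and Mir873a (153 and 567 CPM, distance 0.74), both also higher in mouse 2. For Mir449a they were Mir503 (28.0 and 34.3 CPM, distance 0.19) and the erythroid Mir486 (30.6 and 25.2 CPM, distance 0.27). With 2 mice this likeness holds little information, and for Mir34c the shared direction follows from the search itself.

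Markers of epithelium and choroid plexus, where Mir34b, Mir34c and the Mir449 genes are also known, had nearly equal sums in both mice. Their 9 genes summed to 818 CPM for mouse 1 and to 824 CPM for mouse 2, and none had 0 counts in both mice. Of the 5 tested, 0 were at least 2-fold higher in mouse 2 and 1 was so in mouse 1, against 14.2% and 5.25% of all tested genes, a background at which 5 genes can show little. Their median log2 ratio was −0.03. Mir204, abundant in choroid plexus, stood at 489 and 495 CPM and made up most of both sums, while the other genes moved in both directions. Mir429 (99.0 and 135 CPM) and the skin-enriched Mir203 (61.1 and 120 CPM) were higher in mouse 2 by less than 2-fold. Mir200b (129.0 and 35.9 CPM, log2 ratio −1.89) was lower there, and so, by less than 2-fold and short of the test (adjusted p = 0.0656 by the exact binomial test), was its cluster neighbour Mir200a (21.8 and 13.4 CPM). Mir429, 908 bases from Mir200a on the same strand, belongs to that cluster too and went the other way. Mir200c (5.70 and 11.8 CPM) and Mir205 (8.29 and 10.2 CPM) were too low for the test, as were Mir211 with 8 and 1 counts and Mir141 with 0 and 2.

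Other microRNAs linked to p53 were higher in mouse 2 more often than lower. Of the 10 genes listed, 9 were measured, 7 were tested and 4 were at least 2-fold higher in mouse 2, with 0 in the other direction, against 14.2% and 5.25% of all tested genes. Their median log2 ratio was 1.00. The 4 were Mir194-2 (8.29 and 30.6 CPM, log2 ratio 1.84), Mir107 (1010 and 2777 CPM, 1.41), Mir192 (12.95 and 29.0 CPM, 1.11), which is clustered with Mir194-2, and Mir143 (4400 and 9110 CPM, 1.00). Mir143 passed at the edge, at 2.002-fold with TMM library sizes. With the DESeq2 size factors, equal for both mice, its 8493 and 16979 counts fell just short of 2-fold. Mir145a, clustered with Mir143 and like it abundant in mural cells of vessels, stood at 189 and 355 CPM. Mir15a stood at 427 and 829 CPM, and its cluster neighbour Mir16-1 at 696 and 616 CPM. Mir215 had 4 and 3 counts and Mir194-1 had 0 in both mice. The list holds several genes of shared clusters, which are not separate observations, and nothing particular to p53 was tested.

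Genes that mark other cells also differed between these mice in both directions. The endothelial Mir126a stood at 11276 and 22380 CPM, and the oligodendrocyte genes Mir219a-2 and Mir338 summed to 2746 and 5119 CPM. Each of these genes was higher in mouse 2 by less than 2-fold (log2 ratios 0.94, 0.78 and 0.93). By the adjusted p alone, 74.7% of all tested genes differed. The 9 neuronal genes summed to 62499 and 102633 CPM, and the higher sum of mouse 2 was mostly Mir132 (29894 and 64860 CPM). Of the 6 neuronal genes tested, 1, Mir132, was at least 2-fold higher in mouse 2 and 0 in mouse 1, against 14.2% and 5.25% of all tested genes. The median log2 ratio of the 6 was 0.24. Mir137 (log2 ratio 0.74) and Mir138-1 (0.45) were higher in mouse 2 by less than 2-fold. Mir128-1 (0.03), Mir128-2 (−0.22) and Mir138-2 (−0.60) were level or lower. Of the leukocyte genes, Mir142 (48.2 and 137 CPM) was higher and Mir150 (1531 and 1264 CPM) lower in mouse 2, and Mir223 had 11 and 22 counts. The erythroid Mir451a, Mir144 and Mir486 summed to 742 CPM for mouse 1 and to 153 CPM for mouse 2, mostly Mir451a (649 and 103 CPM). Of these 3 genes, 2 were at least 2-fold higher in mouse 1 and 0 in mouse 2, against 5.25% and 14.2% of all tested genes. Mir486 (30.6 and 25.2 CPM) did not pass (adjusted p = 0.334 by the exact binomial test). Whether these differences in marker levels come from the makeup of the tissue, and what part they have in the level of Mir34c, was not tested.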

How the data were processed

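The authors deposited whole-number read counts per microRNA gene, 1 table per library, on mm10 and GENCODE M21 per the file headers in their README notes. Which aligner, counter and trimming were used is not given in the sources used here. Each table's 3 unnamed count columns were read as unstranded, sense and antisense, from their values, and the sense counts were used. The 4 lines that name no gene stayed out of the sense totals and entered only the number of all reads and the percent of multimapped reads. Reads at several places are missing from every gene, and the arms of a hairpin are counted together. Whether reads with CAST alleles were lost was not tested.

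CPM used the sense totals. TMM factors (0.983 and 1.02) came from edgeR 4.0.16 and size factors from DESeq2 1.42.0. The exact binomial test ran in scipy 1.17.1 and was tested on simulated counts. These held counting error only, with no spread between animals, and planted changes above 2-fold. Calls needed 2-fold and an adjusted p under 0.05. Edits count substitutions, insertions and deletions. Genes named were all members, the 2 nearest genes of each member at 10 CPM or more and the genes of 7 marker lists; those under 10 CPM were added after their values were seen. The members and lists were chosen with earlier results of these data known. Mir605 was not analysed here.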

Additional observations from a re-analysis of the deposited data

How the results depend on the processing

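The direction of Mir34c, Mir34a and Mir449a was the same under total counts, DESeq2 size factors, the unstranded column, a GC correction, no filter and the edgeR negative binomial test. All of these use the same 2 libraries, so they are not separate observations. For Mir449a the direction is open, since its counting interval ran from −0.51 to 0.62. Under the first 4 of these, 1 of the 3 members tested was called, Mir34c, against 20.7%, 19.1%, 19.6% and 18.5% of tested genes. With no filter it was the 1 called of 5 members tested, against 9.83% of 722 genes. With the edgeR negative binomial test 0 members were called (2 of 324 genes in all), by that test's construction, which adds the spread between the mice. At an unadjusted p under 0.05 that test held 1 member, Mir34c, and 17 of 324 genes. With an adjusted p under 0.05 in the exact binomial test and no fold needed, 2 members were called, against 74.7% of tested genes. At 100 CPM in both mice 1 member, Mir34a, was left of 3, and 4 were at 1 CPM. Mouse 2 alone gave 4 members at 10 CPM and mouse 1 alone 3. The family's share was 0.0668% of all reads, by its larger denominator, and it ran from 0.192% to 0.272% over the single mice. Mir449a averaged 31.4 CPM in the unstranded column, whose total is smaller. No paired analysis was possible because there was 1 group. A comparison of the mice without either of them was not possible. Depth limits Mir34b, Mir449b and Mir449c, which had at most 23 counts in a library.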
